A study of Mus musculus with 6 samples.

Results

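Insulin receptor signalling in liver and its FOXO1-driven output were followed through 9 genes in 6 mouse liver transcriptomes. The genes, chosen by name, were Insr, Irs1, Irs2, Akt2, Pik3r1, Foxo1, Foxo3, Igfbp1 and Igfbp2, that is 9 of the 35082 genes with transcripts in the files, and all 9 were among the 12497 genes that could be tested. Each had at least 126 estimated counts in every library. The 6 animals were male mice given a high-fat diet from 8 weeks of age for 20 weeks. Control livers (G3BP1f/f, n = 3) came from animals with floxed G3bp1 alleles and no Cre, and knockout-labelled livers (Alb-cre; G3BP1f/f, n = 3) carried the same floxed alleles plus Cre driven by the albumin promoter, which acts in hepatocytes and leaves the other liver cells with an intact gene. There was no group on another diet. The sources used here do not give the hour of collection or the feeding state. Wherever 3 values of a group follow each other, they are replicates 1, 2 and 3 in that order.

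Insulin binds a receptor tyrosine kinase that phosphorylates the adaptors IRS1 and IRS2. These recruit PI3K, a lipid kinase held by its regulatory subunit, and the lipid it makes brings AKT2 to the membrane. AKT2 phosphorylates FOXO1 and FOXO3, transcription factors that then leave the nucleus, so that genes they drive in the fasted liver, among them Igfbp1 and Irs2, are transcribed less after a meal. IGFBP1 and IGFBP2 are secreted by hepatocytes and bind insulin-like growth factors in blood.

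The promoter sequences are shown for letters that resemble known response elements of this loop. RefSeq (GRCm38.p6) held 13 promoter entries for 8 of the 9 genes, each running from 250 bases before to 50 bases after a start, and Insr had none. Igfbp1 is shown whole because its promoter holds the insulin response element known from work on this gene, a pair of inverted FOXO-type sites. Irs1 and Irs2 are shown as 60-base windows because both join such a site to an E-box, and G6pc, which encodes the last enzyme of glucose release, is shown as a target of FOXO1 described further on. Capitals mark TGTTTTG (or CAAAACA on the other strand), TATTTTG and CACGTG, and lower case the rest.
Igfbp1, chr11:7197537-7197836, plus strand: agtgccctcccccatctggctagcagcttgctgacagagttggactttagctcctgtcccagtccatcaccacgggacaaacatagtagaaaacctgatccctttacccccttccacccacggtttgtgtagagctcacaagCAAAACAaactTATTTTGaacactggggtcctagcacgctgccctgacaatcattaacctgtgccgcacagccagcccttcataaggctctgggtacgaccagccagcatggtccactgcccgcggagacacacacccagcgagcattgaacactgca
Irs1, chr1:82291515-82291574, minus strand: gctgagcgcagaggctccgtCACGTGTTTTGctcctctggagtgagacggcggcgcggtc
Irs2, chr8:11008934-11008993, minus strand: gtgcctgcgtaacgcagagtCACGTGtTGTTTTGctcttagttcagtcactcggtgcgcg
G6pc, chr11:101367466-101367765, plus strand: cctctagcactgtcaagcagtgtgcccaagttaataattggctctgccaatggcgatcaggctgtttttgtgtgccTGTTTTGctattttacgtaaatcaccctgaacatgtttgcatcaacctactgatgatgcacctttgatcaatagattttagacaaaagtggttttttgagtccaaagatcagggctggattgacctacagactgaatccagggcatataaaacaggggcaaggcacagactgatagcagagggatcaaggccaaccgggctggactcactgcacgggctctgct
In all, 4 motifs were searched on both strands: the FOXO consensus core TGTTTAC, the insulin response forms TGTTTTG and TATTTTG, and the E-box CACGTG. All were chosen after the data had been seen, and the E-box after the sequences had. In Igfbp1, CAAAACA began 108 bases before the start and TATTTTG 97 bases before it. In Irs1 the E-box began at -115 and TGTTTTG at -111, so that they overlapped, and a further TGTTTTG lay at -32. In Irs2 the E-box began at -44 and TGTTTTG at -37. The RefSeq start used for Irs2 lay 471 bases from the start of the transcript that carried its counts, and that for Irs1 23 bases. G6pc held TGTTTTG at -174. TGTTTTG was found in promoters of 3 of the 8 genes and in 6.3% of 32851 promoters of the same length, CACGTG in 3 of 8 and 7.2%, TATTTTG in 2 of 8 and 4.4%, and TGTTTAC in 0 of 8 and 3.6%. The counts are of genes, which together had 13 promoter entries, whereas the percentages are of single promoters, so they are not like for like. Both CACGTG and TGTTTTG were in 0.41% of all promoters. These are matches of letters in a window and not shown sites.

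The levels of the 9 genes, compared per transcript length in the deposited TPM (transcript abundance per length and depth), spanned from the secreted binding proteins down to the adaptors. Igfbp2 was the most abundant at 425 ± 166 TPM and Igfbp1 followed at 94.1 ± 68.2 TPM (mean ± SD over all 6 libraries). Their ranges, 195 to 592 and 31.8 to 211 TPM, overlapped, although Igfbp2 stood above Igfbp1 in 6 of 6 libraries. Akt2 came next with 13.7 ± 1.84 TPM, without overlap with its neighbours on either side, and then Insr with 6.47 ± 1.45 TPM. Foxo3 (4.23 ± 1.24), Pik3r1 (4.08 ± 1.62) and Foxo1 (2.73 ± 0.856 TPM) overlapped in range. Irs2 and Irs1 were lowest, at 1.63 ± 0.461 and 1.51 ± 0.553 TPM, and Irs2 was above Irs1 in 3 of 6 libraries, so that the adaptors could not be ordered.

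None of the 9 genes passed the test between the groups. By the quasi-likelihood test of edgeR, with Benjamini-Hochberg adjustment over all 12497 genes, 0 of 9 passed a threshold of 0.05, where the background was 0% of genes called. No gene of the 9 had an unadjusted p under 0.05 either (background 4.55% of genes, 2.65% higher and 1.90% lower), and DESeq2 called 0 of the 9 (background 0.0881%, 11 genes). The groups overlapped for all 9 genes in CPM (counts per 1e6 counts of the library total after scaling with TMM factors). They did not overlap for 9.34% of the genes tested (4.79% higher, 4.55% lower). For Irs2 the overlap depended on that scaling. Its estimated counts before scaling were 291, 279 and 126 in controls and 314, 313 and 309 in knockout-labelled livers, without overlap. The share of all genes without overlap before scaling was not counted. Of the 9 log2 differences 4 lay above 0 and 5 below, with a median of -0.14, beside 51.6% above 0 and a median of 0.01 over all genes tested. With 3 animals against 3, intervals were wide: the narrowest, for Akt2, reached from -0.63 to 0.27 and the widest, for Igfbp1, from -0.998 to 1.88 on the log2 scale.

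**Figure D1:**
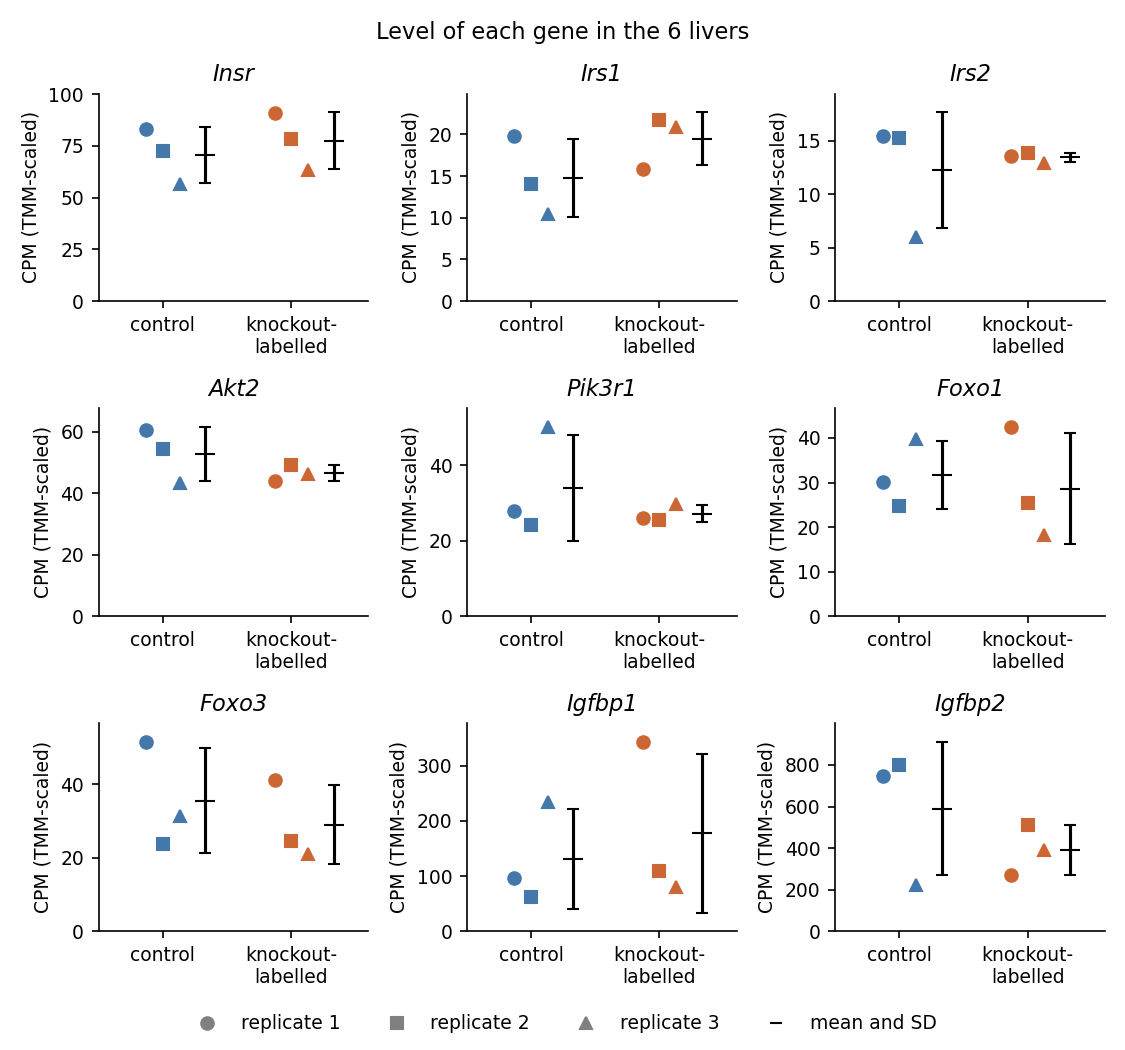
CPM scaled with TMM factors (y axis, linear, from 0) of the 9 genes in the 3 control and 3 knockout-labelled livers; each marker is 1 liver, its shape gives the replicate number, and the bar is the mean with SD. The groups overlap in every panel, and Igfbp1 and Igfbp2 have the widest spread, with control replicate 3 at 234 and 223 CPM.

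Insr encodes the insulin receptor (ENSMUSG00000005534; chromosome 8, 3122061 to 3279617, minus strand). It measured 83.1, 72.4 and 56.4 CPM among controls, against 90.8, 78.3 and 63.5 CPM among knockout-labelled livers. The lowest liver was control replicate 3 and the highest knockout-labelled replicate 1, with the others interleaved. The log2 difference, 0.13, had a standard error of 0.23 and an adjusted p of 0.94 by edgeR. Nearly all of its counts, from 99.4% to 99.7% in the 6 libraries, lay on a single transcript of 9355 bases. In the deposited TPM, by contrast, Insr did not overlap between the groups, with 5.79, 5.18 and 4.73 TPM in controls and 8.01, 8.14 and 6.99 TPM in knockout-labelled livers. On that scale 19.8% of all genes tested were higher without overlap and 0.328% lower, and the log2 difference of Insr was 0.48 (limma adjusted p = 0.40) beside a median of 0.22 over all genes. The Insr difference turned to -0.11 once a trend on length and GC content had been taken out of every library.

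Both adaptors, Irs1 and Irs2, had their lowest value in control replicate 3, and neither passed the test. Irs1 (ENSMUSG00000055980; chromosome 1, 82233101 to 82291416, minus strand), the adaptor also prominent in muscle and fat, measured 19.8, 14.0 and 10.5 CPM among controls, against 15.9, 21.7 and 20.9 CPM among knockout-labelled livers. Knockout-labelled replicates 2 and 3 were above every control, and replicate 1 lay within the controls. On the log2 scale the groups stood 0.40 apart (SE 0.26; edgeR adjusted p = 0.85), and the difference was above 0 in 20 of 20 alternatives, from 0.12 with the length and GC trend removed to 0.71 with sample weights in limma voom. Irs2 (ENSMUSG00000038894; chromosome 8, 10984681 to 11008458, minus strand), the adaptor whose mRNA in liver rises in fasting, measured 15.5, 15.3 and 6.002 CPM among controls, against 13.5, 13.9 and 12.95 CPM among knockout-labelled livers. Control replicate 3 was far below the other 5 livers, all of which lay between 12.95 and 15.5 CPM. Its log2 difference came to 0.14 (SE 0.34; edgeR adjusted p = 0.95), and without control replicate 3 it turned to -0.19. Deposited TPM gave Irs2 no overlap between groups, 1.61, 1.63 and 0.754 against 1.75, 2.02 and 1.99 TPM, on the scale on which 19.8% of genes tested did the same.

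Of the relay below the adaptors, Akt2 was the steadiest of the 9 genes and Pik3r1 set apart a single liver. Pik3r1 (ENSMUSG00000041417; chromosome 13, 101680563 to 101768217, minus strand) encodes the regulatory subunit of PI3K. It measured 27.8, 24.1 and 49.97 CPM among controls, against 26.0, 25.6 and 29.7 CPM among knockout-labelled livers. Control replicate 3 was the only liver above 29.7 CPM, and the knockout-labelled livers spread little around 27.1 ± 2.27 CPM (SD, n = 3). The log2 difference, -0.33, had a standard error of 0.28 and an adjusted p of 0.87 by edgeR and turned to 0.07 without control replicate 3. Its longest coding transcript, of 7113 bases, took 96.0% to 99.8% of counts. That transcript starts at the first of the 2 RefSeq promoter entries, and a start 75587 bases downstream, of shorter forms, has 1 TATTTTG in its window. Akt2 (ENSMUSG00000004056; chromosome 7, 27591552 to 27640826, plus strand), the AKT kinase that predominates in liver insulin action, measured 60.5, 54.3 and 43.2 CPM among controls, against 44.1, 49.3 and 46.2 CPM among knockout-labelled livers. The highest of the 6 was 1.40 times the lowest, a log2 range below that of most genes (percentile 11.8 of all genes tested). On the log2 scale the groups stood -0.18 apart (SE 0.20; edgeR adjusted p = 0.90), turning to 0.09 when libraries were scaled by their totals alone, under which the median gene stood at 0.27. Akt2 counts were divided between a transcript of 2923 bases and one of 4544 bases, the latter taking 17.0%, 12.4% and 7.82% among controls, against 27.8%, 13.3% and 13.8% among knockout-labelled livers.

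For both FOXO factors knockout-labelled replicate 3 was the lowest liver. Foxo1 (ENSMUSG00000044167; chromosome 3, 52268336 to 52353221, plus strand) measured 30.1, 24.8 and 39.9 CPM among controls, against 42.4, 25.3 and 18.1 CPM among knockout-labelled livers. Highest and lowest livers were both knockout-labelled. Its log2 difference came to -0.14 (SE 0.33; edgeR adjusted p = 0.95). Dropping knockout-labelled replicate 1 gave -0.55, dropping knockout-labelled replicate 3 gave 0.10, and dropping control replicate 3 gave 0.06. Foxo3 (ENSMUSG00000048756; chromosome 10, 42181841 to 42276755, minus strand), a family member that acts on many of the same promoters, measured 51.4, 23.8 and 31.4 CPM among controls, against 41.2, 24.7 and 21.1 CPM among knockout-labelled livers. Control replicate 1 and knockout-labelled replicate 1 were its highest livers. The log2 difference, -0.29, had a standard error of 0.35 and an adjusted p of 0.91 by edgeR, and it turned to 0.07 without control replicate 1.

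**Figure D2:**
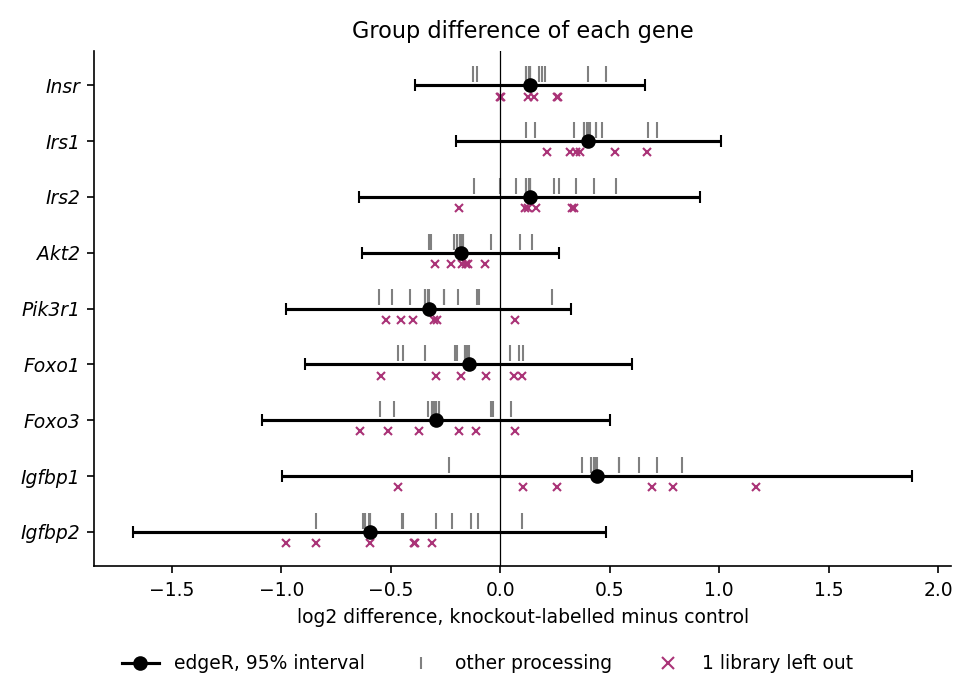
Log2 difference of each gene (x axis, knockout-labelled minus control); filled circles are the edgeR estimates with 95% intervals, grey ticks other processing choices and crosses fits with 1 library left out. Every interval crosses 0, and Irs1 is the gene whose 20 alternatives all lie above 0.

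Igfbp1 and Igfbp2 varied most across the livers, and the livers stood in nearly opposite order for each. Igfbp1 (ENSMUSG00000020429; chromosome 11, 7197782 to 7202546, plus strand), the classical FOXO1 target whose promoter is printed above, measured 96.0, 62.2 and 234 CPM among controls, against 343, 109 and 80.2 CPM among knockout-labelled livers. A single liver of each group, control replicate 3 and knockout-labelled replicate 1, stood above 200 CPM, and the highest liver was 5.51 times the lowest (percentile 95.6 of log2 ranges over all genes tested). The group means were 131 ± 90.8 and 177 ± 144 CPM (SD, n = 3 each), with a log2 difference of 0.44 and a standard error of 0.63 (edgeR adjusted p = 0.92). Its sign turned in 1 of the 6 fits with a liver left out, to -0.47 without knockout-labelled replicate 1. In the other fits it ran from 0.11, when control replicate 2 was dropped, to 1.17, when control replicate 3 was. Igfbp2 (ENSMUSG00000039323; chromosome 1, 72824503 to 72852474, plus strand), a binding protein known to be lower in livers of obese mice, measured 746, 801 and 223 CPM among controls, against 268, 512 and 391 CPM among knockout-labelled livers. The livers with the most Igfbp1 had the least Igfbp2. The means were 590 ± 319 and 390 ± 122 CPM (SD, n = 3 each), with a log2 difference of -0.60 and a standard error of 0.47 (edgeR adjusted p = 0.86). The difference widened to -0.98 when control replicate 3 was left out, narrowed to -0.31 when control replicate 2 was, and turned to 0.10 with sample weights in limma voom.

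The transcripts of Igfbp2 divided the livers in another way than its level. A transcript of 991 bases, whose start lies inside the gene, took 78.6%, 42.1% and 50.7% of the Igfbp2 counts among controls, against 75.8%, 38.5% and 38.9% among knockout-labelled livers. The remainder lay almost wholly on the transcript of 1307 bases that begins at the gene's start. The mean share of the shorter transcript was 57.2% ± 19.1 in controls and 51.1% ± 21.4 in knockout-labelled livers (SD, n = 3 each), a difference smaller than the spread. Both transcripts share most of their exons, so their shares are estimates, and no test was run on them. The shorter transcript has a RefSeq promoter entry of its own, 65 bases from its start, in which none of the 4 motifs was found, whereas the entry 23 bases from the start of the longer one holds CACGTG at -142.

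**Figure D3:**
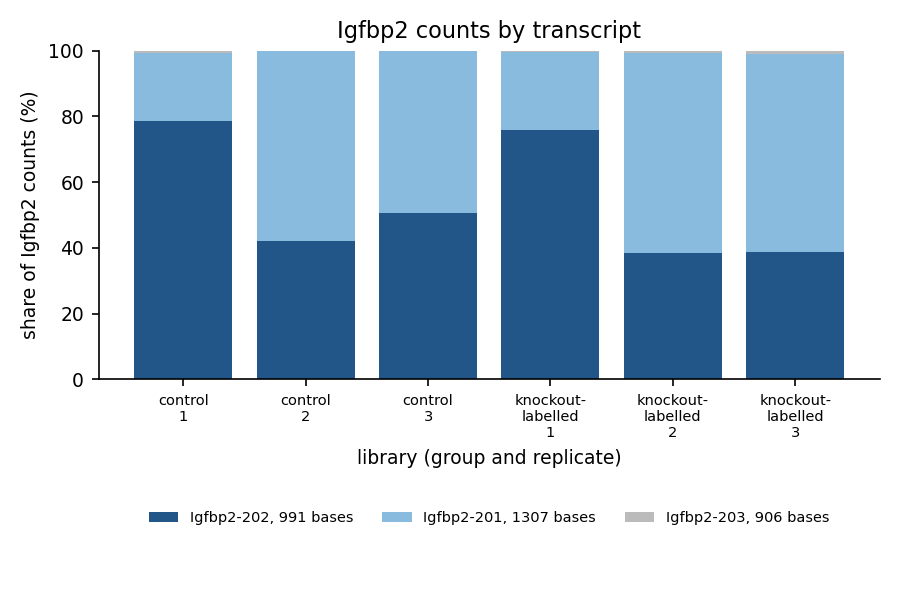
Share of Igfbp2 estimated counts (y axis, percent) on its 3 transcripts in each liver (x axis, group and replicate). The 991-base transcript takes 78.6% and 75.8% in replicate 1 of each group and 38.5% to 50.7% in the other 4 livers.

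Across all 9 genes, control replicate 3 departed most often from the rest. It held the lowest value of 5 genes (Insr, Irs1, Irs2, Akt2 and Igfbp2) and the highest of Pik3r1. Control replicate 1 held the highest value of Irs2, Akt2 and Foxo3, and knockout-labelled replicate 1 that of Insr, Foxo1 and Igfbp1. How often each library was lowest or highest over all genes was not counted, so this describes the 9 genes alone. In log2 CPM around each gene's mean, control replicate 3 was at -1.02 for Irs2 and -0.98 for Igfbp2 but at 0.88 for Igfbp1 and 0.76 for Pik3r1. Likeness was measured as the root mean square difference between centred log2 CPM profiles over the 6 libraries, and it is a description. Among the 9 genes the closest pair was Insr and Akt2 at 0.23, then Irs1 and Irs2 at 0.32, and the most distant was Igfbp1 and Igfbp2 at 1.50. This measure also grows with the range of each gene. Of the 9, Akt2 and Insr had the narrowest log2 ranges (0.49 and 0.69) and Igfbp2 and Igfbp1 the widest (1.84 and 2.46). Insr and Akt2 stood on opposite sides of their means in knockout-labelled replicate 1 (0.31 and -0.16). Foxo1 and Foxo3 lay 0.35 apart, and Foxo1 and Igfbp1 0.55.

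**Figure D4:**
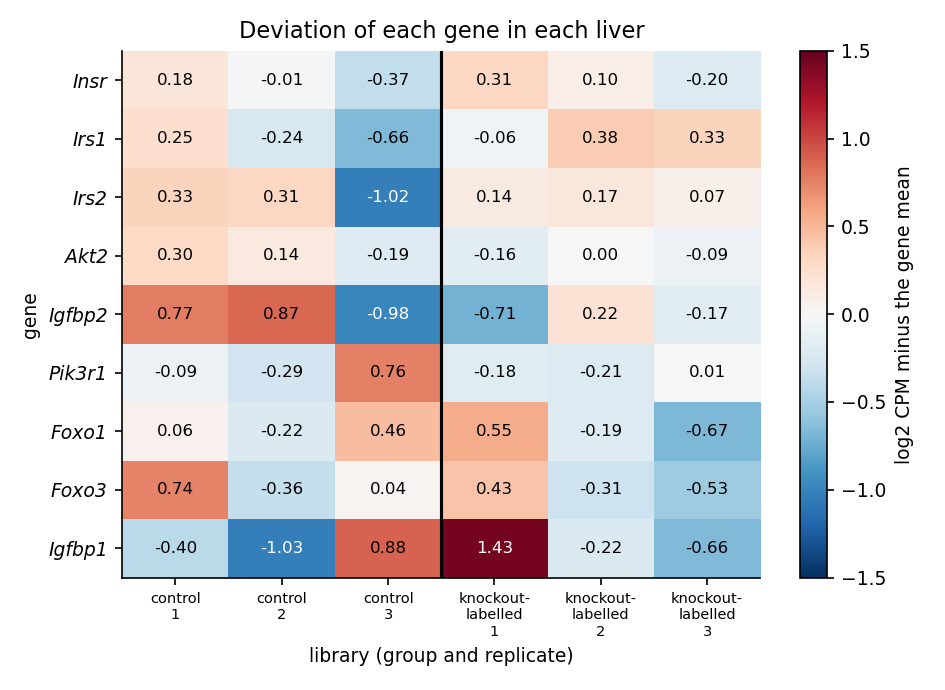
Log2 CPM of each gene (rows) in each liver (columns) minus that gene's mean over the 6 livers, with red above and blue below; the vertical line parts the groups. Control replicate 3 is the lowest for Irs2 (-1.02) and Igfbp2 (-0.98), and knockout-labelled replicate 1 the highest for Igfbp1 (1.43).

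The genes most like the 3 most variable members were sought among 11052 other genes with a mean of at least 1 CPM. Among those nearest to Igfbp1 were Chac1, an enzyme of glutathione breakdown (0.20), and Nbdy, which encodes a microprotein of mRNA decapping (0.22). Chac1 measured 1.86, 1.53 and 4.24 CPM among controls, against 5.87, 1.95 and 1.30 CPM among knockout-labelled livers. Nearest to Igfbp2 were Utp14b (0.18), Cyp2c54, a cytochrome P450 of hepatocytes (0.20), and Slc6a16 (0.22). Cyp2c54 measured 479, 572 and 152 CPM among controls, against 149, 362 and 349 CPM among knockout-labelled livers. Nearest to Irs2 were Zkscan17 (0.08), Zfp113 (0.11) and Coq8a, a kinase-like protein of coenzyme Q synthesis (0.12), all lowest in control replicate 3.

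No gene of the wider relay, nor any of its inhibitors, passed the test. Of 24 tested relay genes (Irs4 and Foxo6 were too low to test) edgeR called 0 higher and 0 lower, 16 lay above 0, and the median log2 difference was 0.12. Smallest p went to Pdpk1, the kinase that activates AKT (0.35), Shc1, an adaptor of the MAP kinase branch (0.22), and Rictor, a subunit of the complex that completes AKT activation (0.24, and -0.01 with the length and GC trend removed). Pik3ca, the catalytic partner of Pik3r1, was named because it was the 1 relay gene of 24 without overlap. Of all genes tested, 4.79% were higher without overlap. Pik3ca measured 17.7 to 18.6 CPM in controls and 19.0 to 20.8 CPM in knockout-labelled livers (log2 difference 0.12, edgeR adjusted p = 0.92). Of 16 inhibitors edgeR called 0, 10 lay above 0, and the median was 0.03. Inppl1, a phosphatase of the PI3K lipid product, measured 6.34, 6.57 and 6.72 CPM among controls, against 6.43, 16.4 and 15.7 CPM among knockout-labelled livers (log2 difference 0.97, edgeR adjusted p = 0.84). Knockout-labelled replicates 2 and 3 stood far above the other 4 livers, and replicate 1 was level with the controls. Phlpp1, a phosphatase that removes a phosphate from AKT, had 9.29 to 9.85 CPM in controls and 10.4 to 15.0 CPM in knockout-labelled livers (log2 difference 0.43, edgeR adjusted p = 0.84). It was the 1 inhibitor of 16 without overlap, beside the same 4.79% of all genes tested. Sh2b2, an adaptor bound by the receptor, had a log2 difference of 0.56 at means of 0.696 and 1.03 CPM, which was 0.0076 with sample weights and 0.86 without control replicate 3. Over the same alternatives Pdpk1 ran from 0.091 to 0.62, Shc1 from 0.091 to 0.50, Phlpp1 from 0.16 to 0.69 and Inppl1 from 0.64 to 1.29, all above 0.

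Genes that FOXO1 activates lay on both sides of 0, and none passed the test. Of 19 tested, edgeR called 0 in either direction, 11 lay above 0 and 8 below, with a median of 0.10. G6pc, whose promoter is printed above, measured 271, 165 and 323 CPM among controls, against 389, 370 and 425 CPM among knockout-labelled livers, which did not overlap (log2 difference 0.64, standard error 0.28, edgeR adjusted p = 0.84). The G6pc difference was 0.41 when control replicate 2 was left out and 1.04 on log2 TPM. Every knockout-labelled liver was above every control, whereas Pck1, the other classical gluconeogenic target, named for comparison after its values were seen, overlapped with 1099 to 1581 against 1215 to 2397 CPM. Ccng2, a cyclin-like gene of growth arrest, measured 5.75, 9.20 and 6.96 CPM among controls, against 9.97, 13.9 and 12.8 CPM among knockout-labelled livers (log2 difference 0.74, edgeR adjusted p = 0.84). Eif4ebp1, an inhibitor of translation, had a log2 difference of -0.35 (0.03 on log2 TPM). Sod2, the mitochondrial superoxide dismutase, was named because it, too, did not overlap, at 266 to 281 against 197 to 262 CPM. Its log2 difference was -0.29 (edgeR adjusted p = 0.85). In all 3 of 19 did not overlap, 2 higher and 1 lower, where 9.34% of all genes tested did not (4.79% higher, 4.55% lower).

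Among genes that insulin induces, Acaca, Acacb and Scd1 lay above 0, and Srebf1 below it. Of 11 tested (Pnpla3 was too low) 0 passed the edgeR threshold, 8 lay above 0, and the median log2 difference was 0.44, beside 0.01 over all genes. Acaca, Acacb and Scd1, enzymes of fatty acid synthesis and desaturation, had the smallest p (log2 differences 0.60, 0.83 and 1.22; edgeR adjusted p = 0.84 for each). They were the 3 of 11 without overlap, all higher, where 4.79% of all genes tested were. Acaca came to 0.33 in the fit with the replicate block and the length and GC trend removed, and Scd1 to 0.77 without knockout-labelled replicate 1. Scd1 measured 566, 773 and 1102 CPM among controls, against 2891, 1642 and 1145 CPM among knockout-labelled livers. Srebf1, the transcription factor that drives lipogenic genes, was named after its values were seen. It measured 74.1, 65.4 and 48.2 CPM among controls, against 38.1, 51.2 and 49.9 CPM among knockout-labelled livers, and the groups overlapped. In the IGF system 0 of 8 tested genes were called, 3 lay above 0, and the median was -0.17 (Igf2 and Igfbp6 were too low to test). Igf1, the hormone that the binding proteins carry, measured 498, 484 and 369 CPM among controls, against 451, 299 and 281 CPM among knockout-labelled livers (log2 difference -0.39, edgeR adjusted p = 0.85). That difference was -0.64 when knockout-labelled replicate 1 was dropped and -0.12 with library totals. Igfbp4, another carrier, had a log2 difference of -0.28 (0.19 on log2 TPM), and Igfbp3, the main carrier in blood, 0.43 (-0.45 without knockout-labelled replicate 1).

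**Figure D5:**
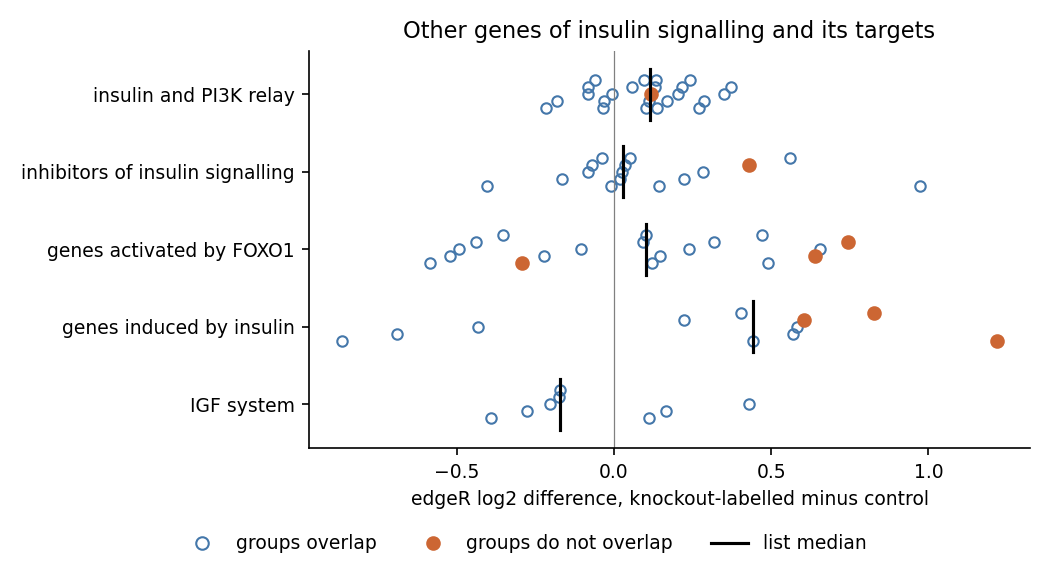
EdgeR log2 differences (x axis, knockout-labelled minus control) of the tested genes of 5 lists; open circles overlap between groups, filled circles do not, and the black line is the list median. Medians run from -0.17 for the IGF system to 0.44 for genes induced by insulin.

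Several features of the libraries moved beside these values, and their part in them was not tested. Totals ran from 20899135 to 21750007 estimated counts. Replicates 2 and 3 of the knockout-labelled group had 9.19% and 10.2% of counts on mitochondrial genes, against 7.22% to 7.64% elsewhere, and had counts on 36.3% and 37.8% of transcripts, against 30.2% to 31.2%. TMM factors did not overlap between the groups, at 0.842 to 1.001 in controls and 1.07 to 1.14 in knockout-labelled livers. G3bp1 itself measured 34.8 to 44.1 CPM in controls and 30.0 to 44.0 CPM in knockout-labelled livers, which overlapped. The floxed exons are not named in the labels, so the groups are called as labelled. Macrophage and Kupffer cell markers had log2 differences below 0 in 12 of 12 cases and summed to 280, 435 and 912 CPM among controls against 287 to 407 CPM, so that control replicate 3 was the highest where it was lowest for Irs2 and Igfbp2. None of these 12 was without counts in all libraries. Summed sinusoidal endothelial markers were 146 to 227 against 158 to 232 CPM, stellate cell markers 92.9 to 284 against 139 to 239 CPM, and red blood cell markers 728 to 1679 against 439 to 1107 CPM. Log2 differences of red blood cell markers lay below 0 in 6 of 6 cases, with a median of -0.95, beside -0.62 for the macrophage list. EdgeR called 0 of these 6, and 1 was lower without overlap (4.55% of all genes tested). Above 0 lay 6 of 9 endothelial and 4 of 8 stellate markers. Cholangiocyte markers summed to 35.5 to 54.7 against 26.9 to 44.0 CPM, and neutrophil and lymphocyte markers to at most 14.2 and 16.1 CPM. Muscle markers were at or below 0.479 CPM in sum. Of the 5 annotated acinar markers 3 had no count and Ctrb1 almost none, whereas Cela1 ran from 6.20 to 15.0 CPM. Of 6 adipocyte markers Adipoq, Plin1, Lep and Retn were at 0 to 0.129 CPM in every library. The summed adipocyte level, 179 CPM in knockout-labelled replicate 3 against 15.9 to 73.4 CPM elsewhere, lay almost wholly on Cidea (137 CPM in that liver) and Cfd (41.8 CPM). Alb, the defining transcript of hepatocytes, ran from 42813 to 88282 CPM, and the 9 hepatocyte markers summed to between 68244 and 129483 CPM. In bulk tissue fewer cells of a type and less RNA per cell cannot be told apart. Genes with transcripts of at most 800 bases sat 0.17 to 0.33 above their mean log2 CPM in 4 livers, whereas they were at -0.34 and -0.62 in replicates 2 and 3 of the knockout-labelled group. Of 16 clock genes edgeR called 0, 6 lay above 0, the median log2 difference was -0.17, and 6 did not overlap (4 higher, 2 lower, against 4.79% and 4.55% of all genes tested), led by Dbp, an output of the clock (75.3 to 149 against 22.1 to 35.3 CPM), Npas2 (0.213 to 0.493 against 1.04 to 1.76 CPM) and Arntl (0.532 to 2.57 against 3.97 to 9.05 CPM), activators of the clock. DESeq2 called Dbp (adjusted p = 0.00064) and Arntl (adjusted p = 0.021), whose adjusted p by edgeR was 0.84.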

How the data were processed

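Poly-A RNA from 6 mouse livers gave paired reads. A deposited file covers 1 library and lists, per the file headers, estimated counts, TPM and effective lengths for each transcript. No depth scaling has been applied to the deposited estimated counts, whereas the deposited TPM values are scaled to the same total in each library, per the file headers. RSEM 1.2.8, Bowtie2 2.2.5, GRCm38 and DESeq are named, without roles, per the submitters' processing notes. The headers have the layout of Salmon, whose version and options the sources used here do not give. Knockout-labelled replicate 1 shows an implied fragment length of exactly 250 bases (242 to 262 bases in the others), which touches its TPM.

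Estimated counts were summed over transcripts by GENCODE M21 (99.2% of matched transcripts had the annotated length; 1557 of 115221 identifiers matched nothing), and rounded. Gene coordinates are those of M21 on GRCm38. Genes were filtered with filterByExpr, scaled with TMM factors and tested across all 12497 genes with the two-sided quasi-likelihood test of edgeR 4.0.16 (R 4.3.3), with Benjamini-Hochberg adjustment. Log2 CPM used a prior count of 2. Standard errors are the absolute log2 difference over the square root of F, and 95% intervals use the test's degrees of freedom. Totals were 20899135 to 21750007, and counting error weighs more for low genes, such as Npas2 and Sh2b2 with 116 and 113 counts over all libraries. P-values here rest on 3 animals a group and include counting error. Their variance estimates also draw on the other genes tested. Alternatives used limma 3.58.1 (TPM with a pseudocount of 1), DESeq2 1.42.0, loess (span 0.5, degree 2) over length and GC, and a model term, taken from earlier results of these data, that sets control replicate 2 and knockout-labelled replicates 2 and 3 against the other 3 libraries. The fit was tested on simulated counts.

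The genes, lists and tests were chosen with earlier results of these data known. Named were all 9 genes, the 3 genes of each pathway list with the smallest p, and the 3 nearest profiles of the 3 genes with the widest range. Pik3ca, Sod2, Pck1 and Srebf1 were named beyond this rule after their values were seen. Some results that this rule or the lists would name are not reported here. Reads of overlapping genes cannot be told apart, since the sources used here do not say whether strand was used.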

Additional observations from a re-analysis of the deposited data

How the results depend on the processing

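Each of the 9 log2 differences was recomputed under 20 alternatives, and none of the 9 genes passed the threshold in any. Irs1 kept its direction in all 20. Signs turned for Akt2 (0.091) and Foxo1 (0.088) with library totals, for Igfbp1 (-0.24) and Igfbp2 (0.10) with sample weights, for Insr (-0.11) and Irs2 (-0.12) with the length and GC trend removed, for Foxo1 (0.044) with a term dividing the libraries, and for Akt2 (0.14), Pik3r1 (0.24), Foxo1 (0.11) and Foxo3 (0.048) on log2 TPM. Library totals moved the median of all genes to 0.27 and TPM to 0.22. With 1 library left out the differences ran from 0.0013 to 0.27 for Insr, 0.21 to 0.67 for Irs1, -0.19 to 0.34 for Irs2, -0.30 to -0.07 for Akt2, -0.52 to 0.068 for Pik3r1, -0.55 to 0.10 for Foxo1, -0.64 to 0.068 for Foxo3, -0.47 to 1.17 for Igfbp1 and -0.98 to -0.31 for Igfbp2. Over all genes edgeR called 0, DESeq2 6 higher and 5 lower, and leaving out 1 library 0 to 2 higher and 0 to 1 lower, the calls coming without knockout-labelled replicate 1. The cause was not tested.

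Whether replicate numbers in the labels pair the livers cannot be settled from so few libraries. Deviations of same-numbered libraries correlated at 0.20, 0.27 and -0.14 across genes. Control replicate 1 correlated best with knockout-labelled replicate 1 (0.20). Control replicates 2 and 3 correlated best with knockout-labelled replicates 3 (0.34) and 1 (0.23). With the replicate block Irs1 was at 0.44, Igfbp1 at 0.42 and Igfbp2 at -0.45, and no gene was called. With the replicate block and the length and GC trend removed Insr was at -0.12 and Irs2 at -0.0023.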
